A study of Mus musculus with 8 samples.

Results

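The expression of 10 genes was followed across the testes of N6amt1-SKO and CTL mice: Zbtb16, Gfra1, Id4, Etv5, Lin28a, Ret, Sall4, Bcl6b, Foxo1 and Uchl1. They are markers of undifferentiated spermatogonia, the germ cell population that holds the stem cells of the testis, together with genes of the response to the growth factor GDNF. They were taken by symbol, and all 10 of 10 were found among the 17121 genes of the deposited table. The series is an RNA-seq study of whole mouse testis with 4 libraries labelled with the genotype N6amt1-SKO and 4 labelled CTL, and it asks how the methyltransferase N6AMT1 acts in the making of sperm. The labels do not spell out SKO and name no strain, age, Cre driver, targeted exon or treatment for either genotype, and all 8 libraries share the tissue label testis. Whether each library is a different animal is not stated, and the p-values speak for the scatter of these 8 libraries alone, part or all of which may be technical. Libraries are named SKO 1 to 4 and CTL 1 to 4.

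Undifferentiated spermatogonia lie on the basement membrane of the seminiferous tubule and either renew themselves or commit to differentiation. Sertoli and peritubular cells secrete GDNF, which binds the membrane-anchored co-receptor GFRA1 on the spermatogonia. The pair engages the receptor tyrosine kinase RET, and the signal runs through SRC family kinases and the PI3K-AKT and RAS pathways to transcription factors such as ETV5, BCL6B and ID4. ZBTB16 (also called PLZF) and SALL4 are transcription factors that keep these cells undifferentiated, LIN28A is an RNA-binding protein that blocks maturation of let-7 microRNAs, FOXO1 is a transcription factor held back by AKT, and UCHL1 is a ubiquitin hydrolase long used as a spermatogonial marker.

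Each deposited column holds whole reads rescaled by its own factor, and the reads behind it came to about 40.6 to 65.6 M per library in SKO and 57.4 to 258 M in CTL, with CTL 1 and CTL 2 the deepest (M, 10 to the power of 6). Between 168 and 17606 reads lay behind each value of the 10 genes. 18S ribosomal RNA took 0.969% of the deposited total in SKO 4 and 0.731% and 0.721% in CTL 3 and CTL 4, against 0.173% to 0.273% in the other 5 libraries, and results are also given within these 2 library sets. The extraction protocol names heart ventricles. Spermatocyte markers summed to 263778 to 364636 in SKO and 373384 to 474853 in CTL, and the 4 heart muscle markers of a list of 6 that are in the table to 1462 to 2425 in SKO and 731 to 1249 in CTL. N6amt1 itself had normalised values of 586, 557, 561 and 625 in SKO 1 to 4, against 475, 433, 629 and 514 in CTL 1 to 4 (log2 fold change 0.19, standard error 0.17, limma adjusted p = 0.437), and the groups overlapped. The value is summed over the whole gene and does not check the genotype labels. Values throughout are normalised with TMM factors (a trimmed mean of log ratios between libraries), and tests are the limma fit over 17066 genes, adjusted by Benjamini-Hochberg with a threshold of 0.05. Fold changes are differences of log2(value + 5), and the added 5 shrinks those of low genes.

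Ret and Uchl1 rose in the N6amt1-SKO libraries and the other 8 genes did not pass the test. That is 2 of 10 risen and 0 fallen, where limma called 19.9% of all genes tested, 11.9% as higher and 7.93% as lower. Of the 10 genes, 5 were at an unadjusted limma p below 0.05 in either direction, and all 5 were higher in SKO. Over all genes, 6321 of the 17066 tested were at such a p in either direction, a count not split here into higher and lower. The same 2 genes were those with no overlap between the groups, which 26.1% of all genes showed (15.6% higher and 10.6% lower in SKO). The median log2 fold change of the 10 genes was 0.48, against 0.042 over all genes, and ranged from -0.50 for Bcl6b to 0.93 for Uchl1. Lin28a, Zbtb16, Sall4 and Foxo1 lay above 0, Etv5 was near 0, and Id4, Gfra1 and Bcl6b lay below it, where with column totals as the only scaling Id4 and Gfra1 lay above it. In whole testis, a change in the share of a cell type and a change in RNA per cell cannot be told apart. Sertoli cell markers were higher in SKO too: 12 of 14 rose and 0 fell, and their summed normalised value was 189019 to 357423 in SKO and 87430.1 to 181244 in CTL. Their part in the results was not tested.

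**Figure D1:**
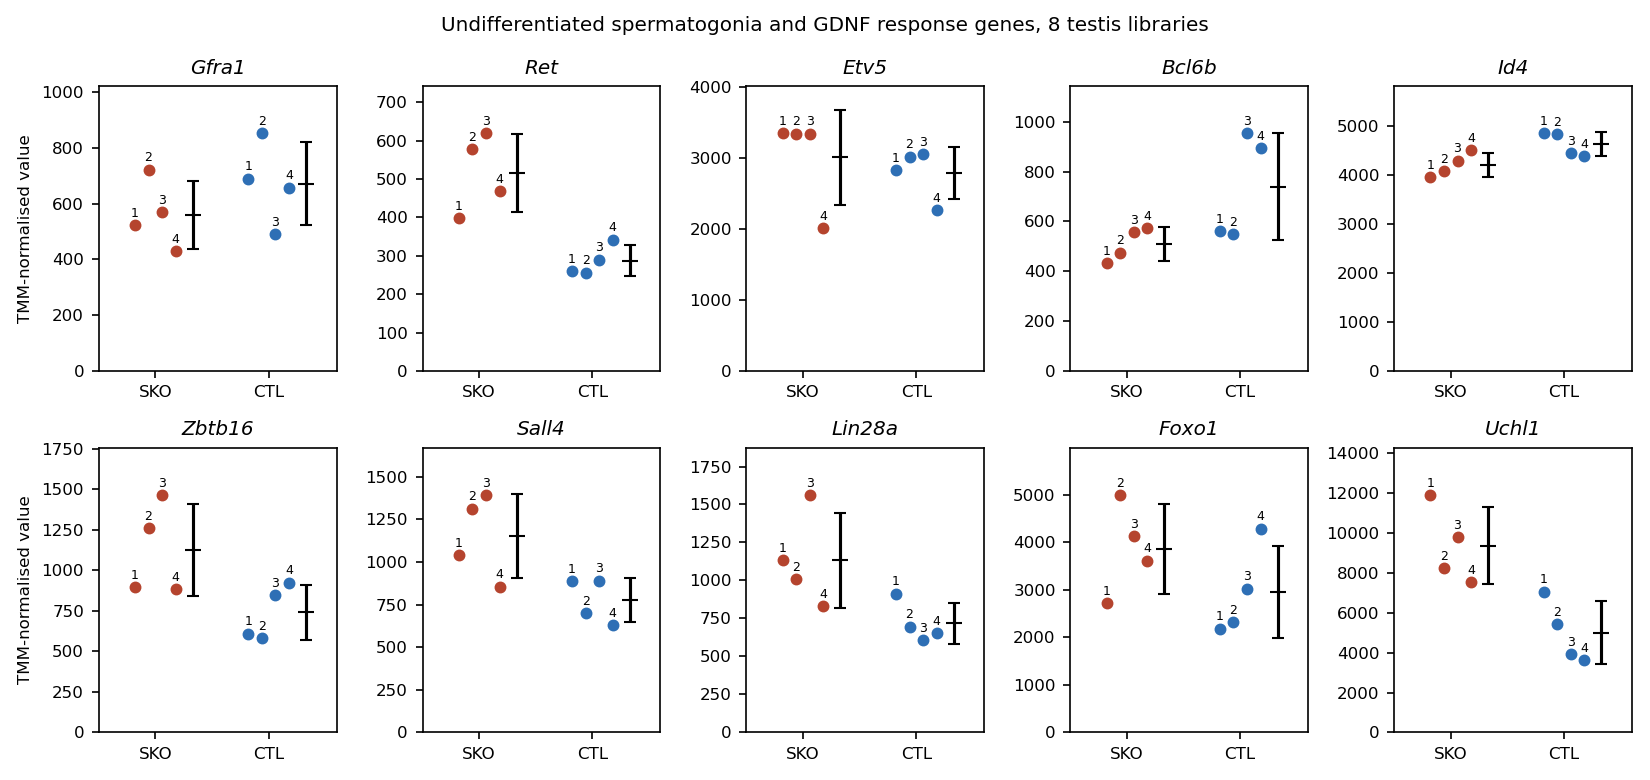
TMM-normalised value (y axis, from 0) of each gene in the 4 N6amt1-SKO libraries (SKO, red) and the 4 CTL libraries (blue), numbered by replicate, with the mean and SD as black bars. All SKO points of Ret (398 to 618) and Uchl1 (7535 to 11899.7) lie above all CTL points, while the groups of the other 8 genes overlap.

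**Figure D2:**
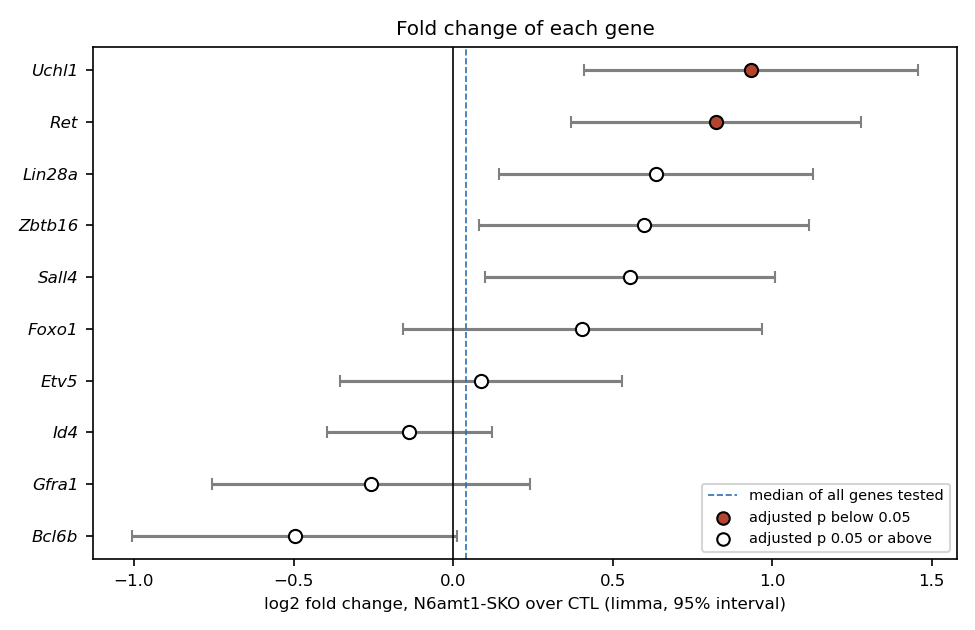
log2 fold change of N6amt1-SKO over CTL for each gene (x axis) with its 95% interval from limma, and the median of all genes tested as a dashed line (0.042). Filled points have an adjusted p below 0.05. The intervals of Uchl1 (0.41 to 1.46) and Ret (0.37 to 1.28) lie above 0, as do those of the uncalled genes Lin28a, Zbtb16 and Sall4.

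Of the GDNF receptor genes, Ret rose and Gfra1 did not pass the test. Ret encodes the receptor tyrosine kinase (GRCm38, chromosome 6, 118151745 to 118197718, 6.763 kb of exon). It had 398, 578, 618 and 469 in SKO 1 to 4, against 260.2, 256, 289 and 342 in CTL 1 to 4. SKO 3 was the highest library and CTL 2 the lowest, and the groups did not overlap. The means were 516 ± 101 in SKO and 287 ± 39.7 in CTL (SD, n = 4 each), so Ret was 1.77-fold higher in SKO (log2 fold change 0.82, standard error 0.20, limma adjusted p = 0.0244). The log2 fold change stayed between 0.73 and 0.94 when libraries were left out in turn, but the limma adjusted p was above 0.05 without CTL 1 (0.0623), CTL 2 (0.0665), CTL 3 (0.0681), SKO 2 (0.0677) or SKO 3 (0.0847). Ret was also not called with CTL 1 and CTL 2 both left out (0.63, limma adjusted p = 0.112), and it was called within the 5 libraries with less 18S (1.00, limma adjusted p = 0.0248). Without SKO 3 limma called 0 of all genes, with 4784 at an unadjusted p below 0.05.

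Gfra1, the GDNF-binding co-receptor (chromosome 19, 58235604 to 58455909), had 523, 721, 569 and 429 in SKO 1 to 4, against 689, 852, 489.8 and 657 in CTL 1 to 4. CTL 2 was the highest library and SKO 4 the lowest, and the groups overlapped. Its means were 560.4 ± 122 in SKO and 672 ± 148 in CTL (SD, n = 4 each; log2 fold change -0.26, standard error 0.22, limma adjusted p = 0.435), and the 95% interval of the fold change was -0.76 to 0.24. With column totals as the only scaling its fold change was 0.031, of the other sign. The ratio of Ret to Gfra1 within a library needs no scaling between libraries. It was 0.761, 0.802, 1.09 and 1.09 in SKO 1 to 4, against 0.378, 0.301, 0.591 and 0.521 in CTL 1 to 4, so every SKO library lay above every CTL library. The ratio was 2.14-fold higher in SKO, with mean log2 ratios of -0.12 ± 0.28 in SKO and -1.21 ± 0.44 in CTL (SD, n = 4 each). The exact permutation test, two-sided, gave p = 0.0286, which is the lowest value possible with 4 libraries in each group. All 45 pairs of the 10 genes were compared in this way. The adjusted exact permutation p over them was 0.122 for this ratio, and no pair passed. With a lowest possible p of 0.0286, a pair could pass only if many of the 45 reached it, so the adjusted test could hardly single out 1 ratio. 10 pairs were at an unadjusted exact permutation p below 0.05, Ret to Gfra1 among them, and it did not stand out from the others. Bcl6b to Uchl1 (-1.43) and Ret to Bcl6b (1.33), for example, differed more in mean log2 ratio, SKO minus CTL. The difference was 1.09 for Ret to Gfra1.

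Of 12 listed genes of the GDNF family ligands, co-receptors and RET, 9 were tested, of which 2 rose and 1 fell (median log2 fold change -0.18, which was 0.11 with column totals, 0.33 within the 3 libraries with more 18S and 0.49 without CTL 1 and CTL 2). In the fit on all 8 libraries limma called 11.9% of all genes as higher in SKO and 7.93% as lower. With 1 library left out, 0 to 2 of the 9 genes rose and 0 to 2 fell. Gdnf, the ligand, had 280.2, 294, 518 and 310.3 in SKO 1 to 4, against 197, 169, 161 and 194 in CTL 1 to 4, with no overlap and with SKO 3 far above the others (log2 fold change 0.90, standard error 0.24, limma adjusted p = 0.0315). Its mean was 1.87-fold higher in SKO. The log2 fold change was 0.70 without SKO 3, and the call held in 2 of the 8 fits that left out 1 library, those without CTL 4 and without SKO 4. Gfra4, the co-receptor that binds persephin, had 1421, 1143, 1355 and 1833 in SKO 1 to 4, against 2063, 1997, 2459 and 2244 in CTL 1 to 4. It fell, with no overlap (log2 fold change -0.62, standard error 0.17, limma adjusted p = 0.0319), and was called in 4 of the 8 fits. Pspn, the gene of persephin, was not in the table, and neither were Gfra3 and Gfral. The co-receptor gene Gfra2 (log2 fold change -0.56, limma adjusted p = 0.244) and Ncam1, an adhesion molecule that can also bind GDNF with GFRA1 (log2 fold change -0.64, limma adjusted p = 0.176), did not pass.

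**Figure D3:**
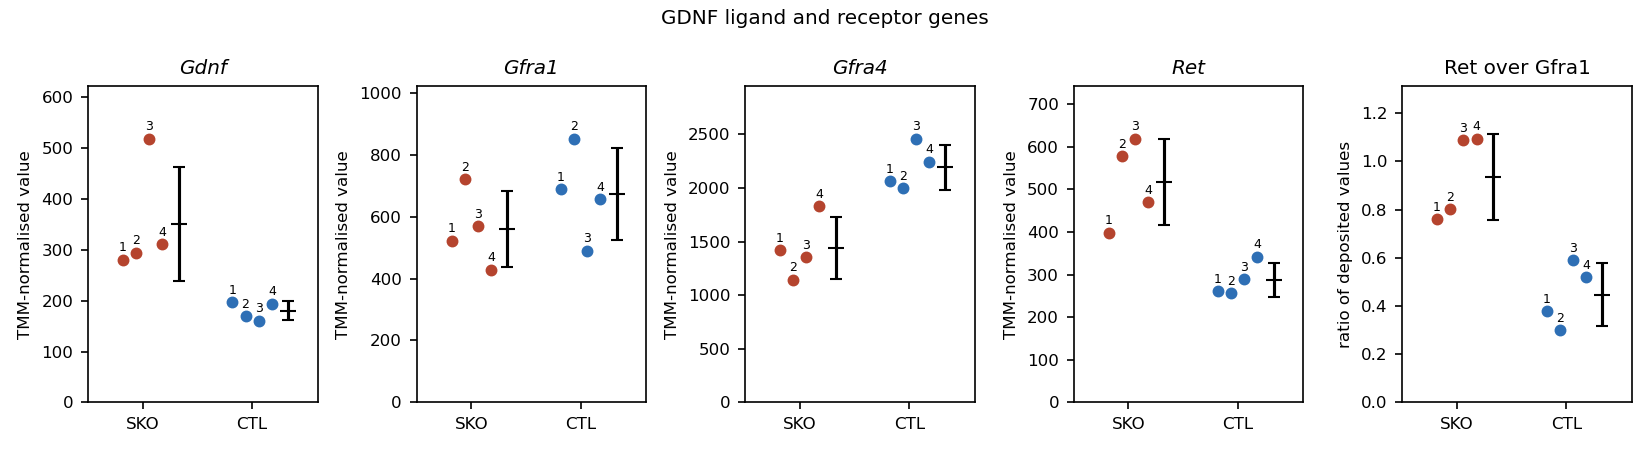
TMM-normalised values (y axes, from 0) of Gdnf, Gfra1, Gfra4 and Ret, and the ratio of the deposited values of Ret to Gfra1, in the 4 N6amt1-SKO (SKO, red) and 4 CTL (blue) libraries, with means and SDs as bars. The ratio is 0.761 to 1.09 in SKO and 0.301 to 0.591 in CTL, and Gfra1 overlaps between the groups.

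The 3 transcriptional regulators of the GDNF response among the 10 genes did not pass the test. Etv5 encodes an ETS transcription factor that GDNF induces in spermatogonia and that Sertoli cells also express. It had 3348, 3347, 3346 and 2010.5 in SKO 1 to 4, against 2829, 3022, 3059 and 2264 in CTL 1 to 4. SKO 1 to 3 were close to each other, SKO 4 was the lowest of all 8, and CTL 4 was the lowest of its group. The means were 3013 ± 668 in SKO and 2794 ± 367 in CTL (SD, n = 4 each; log2 fold change 0.087, standard error 0.20, limma adjusted p = 0.79, 95% interval -0.36 to 0.53). The sign of this difference was not stable: it was -0.042 without CTL 4 and -0.013 with the 18S library set as a covariate.

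Bcl6b, a transcriptional repressor gene induced by GDNF, had 433, 474, 556 and 573 in SKO 1 to 4, against 561, 548, 953 and 893 in CTL 1 to 4. CTL 3 and CTL 4 stood above the other 6 libraries, and SKO 3 and SKO 4 lay within the range of CTL. Its means were 509 ± 66.8 in SKO and 739 ± 214 in CTL (SD, n = 4 each; log2 fold change -0.50, standard error 0.23, limma adjusted p = 0.145). With CTL 1 and CTL 2, the deepest libraries, left out, Bcl6b passed as lower in SKO (log2 fold change -0.91, limma adjusted p = 0.0202), whereas within the 5 libraries with less 18S it was -0.19 (limma adjusted p = 0.408). Id4 encodes a helix-loop-helix protein without a DNA-binding region, and its high level marks the spermatogonia with stem cell activity. It had 3959.7, 4084, 4295 and 4517 in SKO 1 to 4, against 4852, 4836, 4445 and 4395 in CTL 1 to 4, the smallest relative spread of the 10 genes, and only SKO 4 reached into the range of CTL. The means were 4214 ± 245 in SKO and 4632 ± 246 in CTL (SD, n = 4 each; log2 fold change -0.14, standard error 0.12, limma adjusted p = 0.423, 95% interval -0.39 to 0.12), and with column totals the fold change was 0.15.

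Of 16 genes listed as responding to GDNF, 15 were tested, of which 2 rose and 0 fell (median log2 fold change 0.37). Over all genes tested, 11.9% rose. The risen count of this list was 0 to 3 with 1 library left out. Mycn, a MYC family transcription factor, rose (log2 fold change 1.11, limma adjusted p = 0.0273), with 1441, 1542, 1676 and 877 in SKO 1 to 4, against 939, 717, 439 and 502 in CTL 1 to 4. Pou3f1, a POU transcription factor of GDNF-treated germline stem cells, rose as well (log2 fold change 0.78, limma adjusted p = 0.0399), with 325, 377, 547 and 483 in SKO 1 to 4, against 236, 204, 304 and 249 in CTL 1 to 4. Of the 8 fits that left out 1 library, Mycn was called in 3 and Pou3f1 in 0. The LIM transcription factor gene Lhx1, named here after its values were seen, had 204, 69.3, 64.1 and 116 in SKO 1 to 4, against 181, 237, 169 and 106 in CTL 1 to 4 and did not pass (log2 fold change -0.68, limma adjusted p = 0.247). Among the RAS-MAPK feedback genes, Dusp6 (log2 fold change 0.67, limma adjusted p = 0.0505) and Spry4 (log2 fold change 0.47, limma adjusted p = 0.133), also named after their values were seen, did not pass.

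Of 23 tested genes of RET signalling described here, 4 rose (median 0.18 on the log2 scale, and -0.13 within the 3 libraries with more 18S). Over all genes tested, 11.9% rose. The risen count of this list was 0 to 6 with 1 library left out. Grb2, an adaptor that links RET to RAS (log2 fold change 0.88, limma adjusted p = 0.0123), and the SRC family kinase gene Fyn (log2 fold change 0.69, limma adjusted p = 0.0153) rose most. Grb2 had 3686, 3552, 3858 and 3104 in SKO 1 to 4, against 2224, 2109.8, 1642 and 1754 in CTL 1 to 4, with no overlap. The adaptor gene Shc1 and the kinase gene Akt1 were the other risen genes.

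Zbtb16, Sall4 and Lin28a, which mark undifferentiated spermatogonia, were higher on average in SKO but did not pass. Zbtb16 (chromosome 9, 48654297 to 48836222) had 898, 1261, 1466 and 886 in SKO 1 to 4, against 609, 581, 847 and 924 in CTL 1 to 4. SKO 2 and SKO 3 stood above all others, and SKO 1 and SKO 4 lay at the level of CTL 3 and CTL 4. The means were 1128 ± 285 in SKO and 740.3 ± 171 in CTL (SD, n = 4 each; log2 fold change 0.60, standard error 0.23, limma adjusted p = 0.0916). Its difference depended on the library set. Within the 5 libraries with less 18S, where limma called 32.2% of all genes, it passed (log2 fold change 0.99, limma adjusted p = 0.0222), and it was 0.019 within the 3 libraries with more 18S, where SKO 4 stands alone against CTL 3 and CTL 4.

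Sall4, a zinc finger gene (chromosome 2, 168748332 to 168767943), had 1041, 1312, 1393 and 856 in SKO 1 to 4, against 885, 699, 889 and 631 in CTL 1 to 4. SKO 1 to 3 lay above all CTL libraries and SKO 4 within their range. The means were 1150.2 ± 247 in SKO and 776 ± 131 in CTL (SD, n = 4 each; log2 fold change 0.55, standard error 0.20, limma adjusted p = 0.079). Sall4 passed within the libraries with less 18S (log2 fold change 0.65, limma adjusted p = 0.0418), where limma called 32.2% of all genes. It also passed without SKO 4 (0.69, limma adjusted p = 0.0364), where limma called 23.4%. That was 1 of the 8 fits that left out 1 library, and in the others the limma adjusted p reached 0.21. Within the 3 libraries with more 18S the log2 fold change of Sall4 was 0.21. Lin28a (chromosome 4, 134003330 to 134018841) had 1132, 1008, 1563 and 831 in SKO 1 to 4, against 914, 695, 607 and 652 in CTL 1 to 4. Again SKO 4 alone fell within the range of CTL, below CTL 1. The means were 1133 ± 312 in SKO and 717 ± 136 in CTL (SD, n = 4 each; log2 fold change 0.64, standard error 0.22, limma adjusted p = 0.0676). Lin28a passed without SKO 4 (0.77, limma adjusted p = 0.0363), which was 1 of the 8 fits that left out 1 library. In the others the limma adjusted p reached 0.183. The log2 fold change of Lin28a was 0.60 within the libraries with less 18S (limma adjusted p = 0.0788) and 0.41 within those with more. Its paralogue Lin28b rose (log2 fold change 0.48, limma adjusted p = 0.0333), with 1436, 1733, 1567 and 1602 in SKO 1 to 4, against 1182, 1065, 1082 and 1209 in CTL 1 to 4 and no overlap, and it was called in 2 of the 8 fits that left out 1 library. The other tested genes of the let-7 axis, the uridylyltransferase genes Tut4 and Tut7 and the exonuclease gene Dis3l2, did not pass (log2 fold changes -0.20, -0.31 and -0.42).

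Foxo1 (chromosome 3, 52268336 to 52353221) had 2717, 4995, 4125 and 3612 in SKO 1 to 4, against 2185, 2323, 3022 and 4288 in CTL 1 to 4. The groups overlapped, with SKO 2 and CTL 4 the highest and CTL 1 the lowest. The means were 3862 ± 953 in SKO and 2954 ± 961 in CTL (SD, n = 4 each; log2 fold change 0.40, standard error 0.25, limma adjusted p = 0.271, 95% interval -0.16 to 0.97). Foxo1, Zbtb16 and Ret shared a pattern among replicates: in SKO the libraries 2 and 3 were the highest for each of the 3 genes, and in CTL library 4 was the highest, library 3 came next and libraries 1 and 2 were the lowest. Of the 8 tested FOXO genes and partners 2 rose, where 11.9% of all genes rose. These 2 were Foxo6 (log2 fold change 1.02, limma adjusted p = 0.0132) and Foxo4 (log2 fold change 0.73, limma adjusted p = 0.0429). Foxo4 was called in 2 of the 8 fits that left out 1 library.

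Uchl1 was the most abundant of the 10 genes and the one with the largest change (chromosome 5, 66676091 to 66687234, 1.632 kb of exon). It had 11899.7, 8228, 9780.1 and 7535 in SKO 1 to 4, against 7059, 5424, 3908 and 3626 in CTL 1 to 4. SKO 1 was the highest library, CTL 4 the lowest, and the groups did not overlap. The means were 9361 ± 1936 in SKO and 5004 ± 1581 in CTL (SD, n = 4 each), a 1.91-fold difference (log2 fold change 0.93, standard error 0.23, limma adjusted p = 0.0256). It kept its call with the 18S library set as a covariate (log2 fold change 0.79, limma adjusted p = 0.00844) and in the 6 libraries left when CTL 1 and CTL 2 are dropped (1.24, limma adjusted p = 0.00421). It lost the call without CTL 3 (0.0799), SKO 1 (0.0682), SKO 2 (0.056) or SKO 3 (0.0806), all limma adjusted p, and over all 8 libraries left out in turn the log2 fold change stayed between 0.76 and 1.07. Of its exon bases 18.1% overlap Uchl1os, a transcript of the opposite strand that is not in the table, and the library kit does not mark strand. Of the others, Id4, Lin28a, Gfra1, Foxo1 and Sall4 share 4.44% to 9.5% of their exon bases with another gene. Neurons are also known to express UCHL1. Nerve and Schwann cell markers summed to 14098 to 16068 in SKO and 9846 to 11766 in CTL. Of the 6, limma called 1 as risen, where 11.9% of all genes rose. The risen gene was Tubb3, a neuronal tubulin gene that is not restricted to nerve, and it made up most of these sums. It had 11770, 10010, 10429 and 10228 in SKO 1 to 4, against 7262, 5892, 8339 and 6398 in CTL 1 to 4. Fold changes of 4 of the 6 markers were positive, and the lowest was -0.59. The part of nerve and Schwann cell markers in the result was not tested.

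RefSeq promoter sequences (GRCm38.p6, 250 bases before to 50 after the start of the gene) were matched for 6 of the 10 genes, with 2 starts for Etv5. The promoters of Uchl1 and Lin28a, with the most positive fold changes among these 6, and of Id4 and Gfra1, with negative ones, are printed 5′ to 3′ so that they can be compared. Of these 4 genes only Uchl1 passed the test, and with column totals the fold changes of Id4 (0.15) and Gfra1 (0.031) were positive. Capitals mark the GC box (GGGCGG or its reverse complement), the only motif searched that these 4 sequences hold.
Uchl1 promoter (chr5:66675871-66676170, plus strand): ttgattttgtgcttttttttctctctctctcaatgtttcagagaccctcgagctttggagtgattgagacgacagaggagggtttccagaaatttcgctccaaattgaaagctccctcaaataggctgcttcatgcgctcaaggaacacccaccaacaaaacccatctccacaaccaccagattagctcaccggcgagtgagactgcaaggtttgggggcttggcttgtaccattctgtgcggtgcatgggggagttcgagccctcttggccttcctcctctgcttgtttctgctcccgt
Lin28a promoter (chr4:134018767-134019066, minus strand): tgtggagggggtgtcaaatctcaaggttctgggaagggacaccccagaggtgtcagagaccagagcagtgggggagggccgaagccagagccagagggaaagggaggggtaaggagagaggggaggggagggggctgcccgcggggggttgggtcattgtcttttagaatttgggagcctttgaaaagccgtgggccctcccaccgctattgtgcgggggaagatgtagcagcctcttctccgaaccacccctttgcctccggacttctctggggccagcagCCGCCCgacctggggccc
Id4 promoter (chr13:48260866-48261165, plus strand): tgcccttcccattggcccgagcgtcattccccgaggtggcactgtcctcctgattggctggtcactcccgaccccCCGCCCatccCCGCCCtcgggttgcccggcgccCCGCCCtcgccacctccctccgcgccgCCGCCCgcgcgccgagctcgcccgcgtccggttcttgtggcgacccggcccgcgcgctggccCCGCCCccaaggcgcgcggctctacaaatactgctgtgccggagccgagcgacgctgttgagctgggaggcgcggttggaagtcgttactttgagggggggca
Gfra1 promoter (chr19:58455349-58455648, minus strand): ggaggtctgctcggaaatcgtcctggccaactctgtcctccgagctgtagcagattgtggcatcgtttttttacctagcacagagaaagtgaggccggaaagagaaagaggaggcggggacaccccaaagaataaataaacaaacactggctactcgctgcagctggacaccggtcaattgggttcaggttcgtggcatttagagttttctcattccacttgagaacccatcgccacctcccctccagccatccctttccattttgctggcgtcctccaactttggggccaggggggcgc

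Id4 had 5 GC boxes, Lin28a 1, and Uchl1 and Gfra1 0 each, where 35.7% of all 32851 promoter rows hold at least 1. CpG dinucleotides numbered 9 in Uchl1, 10 in Lin28a, 39 in Id4 and 12 in Gfra1, against a median of 7 over all rows. Foxo1, with a positive fold change and not printed, had 5 GC boxes and 31 CpG dinucleotides. The 2 starts of Etv5 had 3 and 0 GC boxes, with 37 and 19 CpG dinucleotides. Beyond the 4 printed, 1 of the 2 starts of Etv5 had 1 match to the FOXO motif GTAAACA on either strand, which 3.65% of all rows hold, and the other rows had 0. The ETS motif CCGGAAG (8.86% of all rows, both strands) and the E-box CACGTG (7.15%) were in none of the 7 rows. No matches to different motifs overlapped. A match describes the letters of the window and is not evidence of binding.

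Levels were compared between genes as the normalised value per kb of annotated exon, a scale on which exons not used in testis lower a level. Uchl1 stood far above the rest, at 5736 ± 1186 per kb in SKO and 3066 ± 969 in CTL (SD, n = 4 each), followed by Id4 at 1095 ± 63.6 and 1203 ± 63.9 and Etv5 at 734 ± 163 and 681 ± 89.4. Ret was the lowest in both groups, at 76.3 ± 14.9 per kb in SKO and 42.4 ± 5.87 in CTL. The order in SKO was Uchl1, Id4, Etv5, Foxo1, Lin28a, Zbtb16, Sall4, Bcl6b, Gfra1 and Ret. The libraries of neighbours in that order overlapped except between Uchl1 and Id4, Id4 and Etv5, and Sall4 and Bcl6b. In CTL the order was Uchl1, Id4, Etv5, Foxo1, Bcl6b, Lin28a, Sall4, Zbtb16, Gfra1 and Ret, with no overlap between Uchl1 and Id4, Id4 and Etv5, Etv5 and Foxo1, and Gfra1 and Ret.

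Further markers of undifferentiated spermatogonia were mostly not called. Of 31 listed genes 25 were tested, of which 4 rose, 0 fell and 21 did not pass (median log2 fold change 0.62, against 0.042 over all genes, of which 11.9% rose). Piwil4, the piRNA-binding protein of fetal germ cells and early spermatogonia, rose (log2 fold change 1.55, limma adjusted p = 0.0308), with low values of 120.3, 139.5, 90.8 and 143 in SKO 1 to 4, against 61, 60.6, 17.6 and 30.8 in CTL 1 to 4. Sox3, a transcription factor of spermatogonia committed to differentiate, rose as well (log2 fold change 1.05, limma adjusted p = 0.0148), with 2016, 1633, 1933 and 1639 in SKO 1 to 4, against 1168, 1029, 701 and 665 in CTL 1 to 4 and no overlap. Adgra3 and Sdc4 were the other 2 risen genes, and with 1 library left out the risen count was 0 to 5. Piwil4 was called in 3 of those 8 fits. The stem cell regulators Nanos2, Nanos3, Pax7, Eomes, Pdx1 and T were not in the table, whose genes all reach 95 in at least 1 library. The median of this list was 0.15 within the libraries with more 18S and 0.52 within those with less.

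Genes of the next step, differentiating spermatogonia, gave 4 of 8 risen and 0 fallen (median log2 fold change 0.70), where 11.9% of all genes rose. The risen count was 0 to 6 with 1 library left out (0 without SKO 3, 2 without CTL 3 or SKO 1) and 7 with column totals. Stra8, the retinoic acid response gene, had 3457, 2745, 3214 and 2847 in SKO 1 to 4, against 2048, 1420.2, 1084 and 1478 in CTL 1 to 4 (log2 fold change 1.05, limma adjusted p = 0.0137). Sohlh1, a helix-loop-helix factor needed for differentiation, had 1227, 894, 1104 and 879 in SKO 1 to 4, against 724, 645, 441 and 367 in CTL 1 to 4 (log2 fold change 0.95, limma adjusted p = 0.0263). Dmrt1, another of the 4, is shared with Sertoli cells. Of the 7 ID and E protein genes 5 rose and Id4 was among the 2 that did not. ID proteins hold E proteins away from DNA. Id1 had 731, 580.0, 778 and 436 in SKO 1 to 4, against 425, 305, 193 and 137 in CTL 1 to 4 (log2 fold change 1.33, limma adjusted p = 0.0295) and Id3 1877, 1336, 1932 and 1085 in SKO 1 to 4, against 930.2, 718, 469.9 and 481 in CTL 1 to 4 (log2 fold change 1.27, limma adjusted p = 0.017), and both also respond to BMP signals in many cell types.

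Genes of the stem cell niche gave 5 risen and 0 fallen of 12 tested, where 11.9% of all genes rose and 7.93% fell. All 12 fold changes were positive (median log2 fold change 0.63). Bmp4, a BMP ligand, had 316, 344, 371 and 611 in SKO 1 to 4, against 159, 170.3, 148 and 220.1 in CTL 1 to 4 (log2 fold change 1.18, limma adjusted p = 0.0174), with no overlap. Besides Gdnf, the chemokine gene Cxcl12, Wnt6 and Vegfa were the others that rose, and with 1 library left out the risen count was 0 to 7. The share of positive fold changes over all genes was 52.5%.

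**Figure D4:**
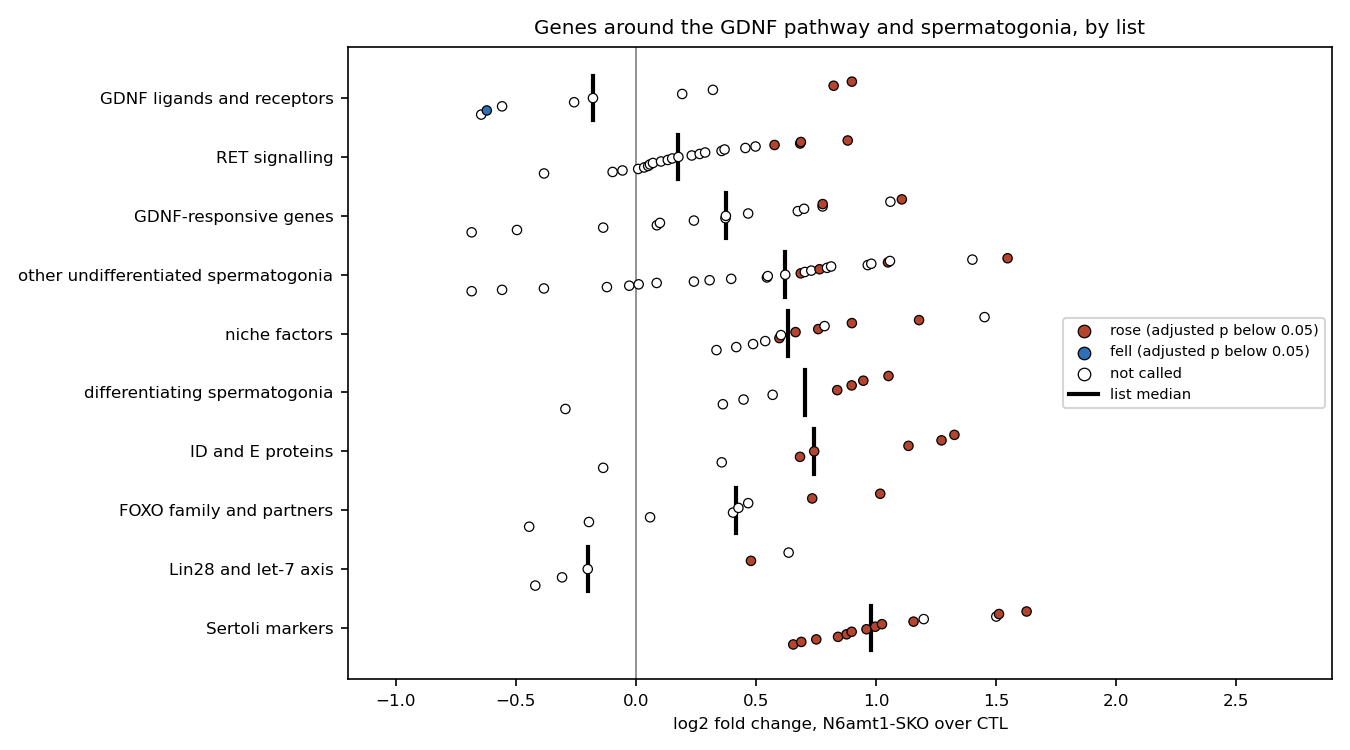
log2 fold change of N6amt1-SKO over CTL (x axis) of each tested gene, by list (y axis), with genes that rose in red, genes that fell in blue, uncalled genes in white and list medians as black bars. Of the 10 lists plotted, medians run from -0.20 for the Lin28 and let-7 axis and -0.18 for GDNF ligands and receptors (0.090 and 0.11 with column totals) to 0.98 for Sertoli markers.

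The markers of the other cell types of the testis moved unequally. Their counts stand beside 11.9% of all genes called as higher in SKO and 7.93% as lower. Sertoli markers had a median log2 fold change of 0.98, with Amh (log2 fold change 1.63, limma adjusted p = 0.0284) and Shbg (log2 fold change 1.51, limma adjusted p = 0.0168) the largest rises. Within SKO the Sertoli sum was lowest in SKO 4, at 189019 against 314362 to 357423 in SKO 1 to 3, and SKO 4 was also the lowest SKO library for Zbtb16, Gfra1, Etv5, Lin28a, Sall4 and Uchl1. Within CTL the sum was 87430.1 and 93622 in CTL 3 and CTL 4, against 181244 and 173800.0 in CTL 1 and CTL 2, and Uchl1 was lowest in the same 2 libraries, whereas Ret, Zbtb16, Foxo1 and Bcl6b were highest in these 2 among CTL. Peritubular markers, cells that also secrete GDNF, gave 3 of 5 risen, led by Myl9 (log2 fold change 0.94, limma adjusted p = 0.0186) and Acta2 (log2 fold change 0.78, limma adjusted p = 0.0123), and summed to 35336 to 41153 in SKO and 20293 to 24137 in CTL. Of the 8 spermatocyte markers 4 fell, led by Piwil1 (log2 fold change -0.74, limma adjusted p = 0.015) and Spag6l (log2 fold change -0.72, limma adjusted p = 0.0271). The fold changes of 3 of the 8 were positive, up to 0.31. Of the 8 spermatid markers limma called 0, with 0 at an unadjusted p below 0.05, the most abundant being Tnp2 (log2 fold change -0.42, limma adjusted p = 0.714), and they varied among replicates, with sums of 101012 to 409624 in SKO and 42744 to 445742 in CTL. Leydig markers gave 2 of 7 risen, Hsd3b1 (log2 fold change 1.04, limma adjusted p = 0.0123) and Nr5a1 (log2 fold change 0.65, limma adjusted p = 0.0159). Fold changes of 5 of the 7 were positive, and the lowest was -0.96. The Leydig sums overlapped, at 42668.5 to 73677 in SKO and 46375 to 57782 in CTL. Macrophage markers gave 1 of 7 risen, Cd74 (log2 fold change 1.23, limma adjusted p = 0.0123). Endothelial markers gave 0 of 6 risen, with 1 at an unadjusted p below 0.05. Vwf was the most abundant of these 6 (log2 fold change -0.85, limma adjusted p = 0.068), but 4 of the 6 fold changes were positive (median 0.027). Heart muscle markers gave 1 of 4 risen, Tnnt2 (log2 fold change 1.01, limma adjusted p = 0.0153). None of these marker lists had a tested defining marker at 0 in all libraries of a group. This cannot show whether a marker was absent, as the table holds only genes that reach 95 in at least 1 library. The peritubular marker Tagln and the heart muscle markers Nppa and Actc1 were not in it. The part of cell mixture in the results for the 10 genes was not tested.

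**Figure D5:**
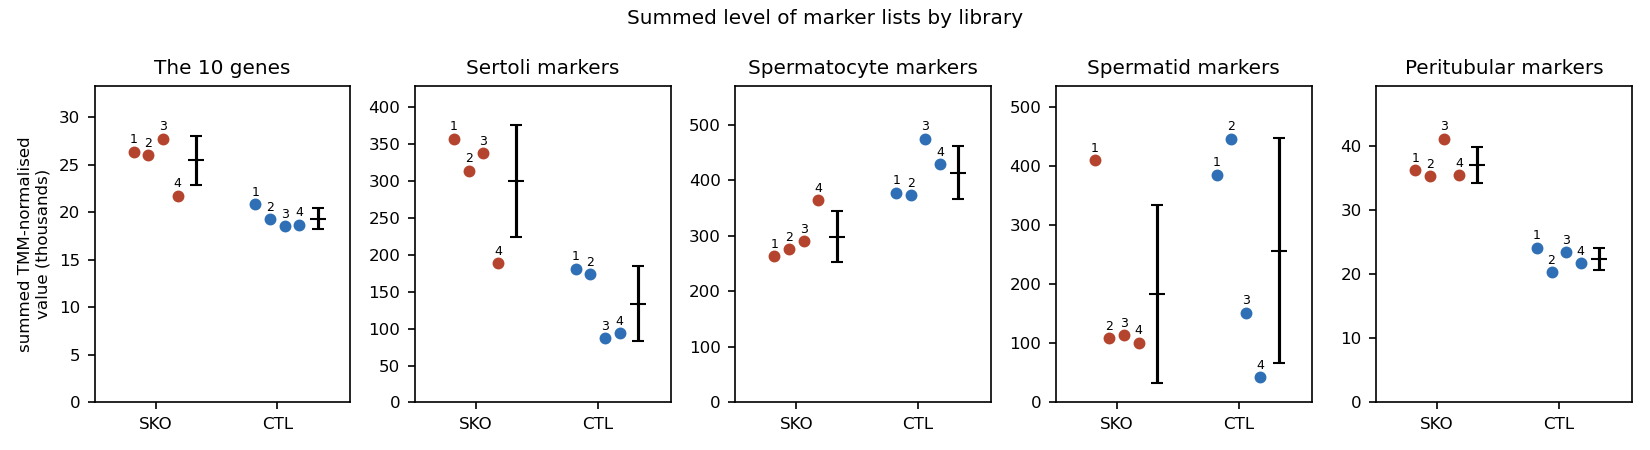
Summed TMM-normalised value (y axes, from 0, in units of 1000) of the 10 genes and of 4 marker lists in the 4 N6amt1-SKO (SKO, red) and 4 CTL (blue) libraries, with means and SDs as bars. The sum of the 10 genes is 21718 to 27710.1 in SKO and 18509.5 to 20844 in CTL, Sertoli and peritubular sums are also higher in every SKO library, and spermatocyte sums are lower in every one. Uchl1, the most abundant of the 10 genes, weighs most in their sum, with means of 9361 in SKO and 5004 in CTL. Taken singly, the groups overlap for all of the 10 genes but Uchl1 and Ret.

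Over the 8 libraries, the genes whose log2 values followed Zbtb16 most closely were Rhou, Ice1 and Mtcl1, with Pearson correlations of 0.994, 0.992 and 0.989. For Ret they were Sri, Vps26b and Ndn, with 0.995, 0.994 and 0.991. These are the highest of all genes tested, picked for their height over 8 points that share libraries and scaling, and describe a likeness of values only. Whether these genes differed between the groups follows from that choice and is not given as a result.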

How the data were processed

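Whole-testis RNA-seq of 8 libraries was used, 4 labelled N6amt1-SKO and 4 labelled CTL. Groups came from the genotype labels and replicate numbers from the titles. Per the labels' protocols, RNA was extracted with TRIzol and the NEBNext Ultra RNA kit was used, which does not mark strand. Alignment software HISAT2 2.0.5, the counter featureCounts 1.5.0-p3, fastp, CASAVA and build mm10 are named per the submitters' processing notes. No source used here says how reads on overlapping genes or with several alignments were treated. The authors deposited a score per gene: reads rescaled by 1 factor a library and rounded. The scaling was read from the spacing of the values, and it shows more weakly in CTL 1 and CTL 2, where the factor is below 1. Count tests were therefore not run. Every gene of the table reaches at least 95 in its highest library.

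Genes reaching 25 in 4 or more libraries were tested (17066 of 17121, including the 10 genes). TMM factors (log ratios trimmed by 30%, abundances by 5%) scaled the libraries, and log2(value + 5) went into limma 3.58.1 (R 4.3.3) with a mean trend in the variance and no covariate, SKO minus CTL, two-sided. The procedure was tested on simulated data. Alternatives were 3 other scalings, constants of 1 and 20, no filter or a filter at 200, a replicate block, the 18S library set (above or below 0.5% of the total) as covariate or split, and libraries left out. Coordinates, exon lengths and overlaps come from GENCODE M21 on GRCm38, the assembly that mm10 names. The 10 genes and the lists were chosen with earlier results of these data known, and several lists share genes with each other and with the 10. The text names the 10 genes, N6amt1, the 2 genes that rose and the 2 that fell most in every list (for a list with no call, its most abundant gene) and the 3 genes most like Zbtb16 and Ret. All further genes were chosen after their values were seen. 1 gene of the RET signalling list is not reported here and is left out of its counts, median and plot.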

Additional observations from a re-analysis of the deposited data

Results flagged for a closer look

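In 4 of 92 sets of 4 libraries (46 named genes by 2 groups), 1 library stood apart by the gap to its nearest neighbour over the range of its group, above Dixon's 95% critical value for 4 values. Chance flags about 1 in 20 such sets. Among the 10 genes this was Etv5 in SKO 4, at 2010.5, below 3348, 3347 and 3346 in SKO 1 to 3. Gdnf in SKO 3 was at 518, above 280.2, 294 and 310.3 in SKO 1, SKO 2 and SKO 4. The Sertoli marker Shbg was at 2299.7 in SKO 4, against 3972 to 4145 in SKO 1 to 3. Tnp2, a transition protein gene of elongating spermatids, was at 143037 in SKO 1, against 27582 to 42686 in SKO 2 to 4.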

How the results depend on the processing

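With column totals, risen and fallen counts over all genes were 4885 and 456 (91.5% of calls risen, against 60.1% with TMM and 49.2% with median ratios). They were 3194 and 2283 within the 5 libraries with less 18S, 43 and 252 within the 3 with more, 2210 fallen with the 18S set as a covariate and 2322 fallen without the 2 deepest libraries. Leaving out 1 library gave 0 to 2455 risen and 0 to 1526 fallen. Column totals move the median of all genes to 0.33. Of the 10 genes, 6 rose with column totals (Zbtb16 0.89, Lin28a 0.93, Sall4 0.84 and Foxo1 0.70 besides Ret and Uchl1), 4 with less 18S, 0 with more 18S and 1 without the 2 deepest libraries, where 1 fell (Bcl6b -0.91), and leaving out 1 library gave 0 to 4 risen and 0 fallen. The median of the 10 genes was 0.77, 0.63, 0.035 and 0.19 under those 4 settings in turn, and 0.35 to 0.58 with 1 library left out. Ret missed the threshold with more 18S (0.58, limma adjusted p = 0.53) and without the 2 deepest libraries (0.63, limma adjusted p = 0.112), and Uchl1 with more 18S (1.02, limma adjusted p = 0.105). Signs reversed for Gfra1 (0.031) and Id4 (0.15) with column totals, for Id4 (0.049), Etv5 (-0.37), Rhou (-0.035) and Tnp2 (0.41) with more 18S, for Etv5 with the 18S covariate (-0.013) and without CTL 4 (-0.042; -0.042 to 0.27 with 1 library left out), and for Tnp2 (0.55) and N6amt1 (-0.018) without the 2 deepest libraries. The cause was not tested. The other constants and filters left both calls and the sign of all 10 genes as they were. The 30 called genes named beyond the 10 kept their sign under all alternatives in which they were tested, which their choice made likely. They were picked as the largest called changes of their lists or, for Sri, Vps26b and Ndn, as the genes most like Ret, whose difference is not a result. Their calls did not all hold: 13 were called in 7 of the 8 fits that left out 1 library, and 8 in 3 or fewer (Gdnf, Mycn, Pou3f1, Piwil4, Foxo4, Lin28b, Amh and Vps26b). None was called without SKO 3. Same-numbered libraries had correlations of deviations of 0.0119 to 0.673, and those with different numbers -0.717 to 0.706. Whether the numbers pair the libraries is not settled by these values. With the replicate block Ret (0.82, limma adjusted p = 0.0327) and Uchl1 (0.93, limma adjusted p = 0.0199) were still the called genes of the 10, and 2162 genes rose and 1701 fell. Among the other named genes Lin28b lost its call (limma adjusted p = 0.056) and Vwf gained one (limma adjusted p = 0.0463). Depth limits the low genes most: Ret rests on 168 to 649 reads a library.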
